A study of Mus musculus with 2 samples.

Results

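Intergenic RNA was measured next to 5 genes of the mouse heart: Myl2, Myh6, Myh7, Adprhl1 and Pdlim5. In total, 13 of the 1912 deposited tissue-specifically transcribed regions (TSTRs) lay within 100 kb of an annotated transcript start of these genes. Of them, 12 were among the 834 heart TSTRs and 1 was among the 1078 limb TSTRs. Heart and limb tissue was microdissected from CD-1 strain embryos at embryonic day 11.5, with no genotype or treatment difference between the groups, and total RNA was sequenced after depletion of ribosomal RNA. Tissue of multiple embryos was pooled into 1 sample for heart and 1 for limb, so the 2 samples carry no measure of the variation between embryos. The libraries kept the strand of the RNA, but the reads were counted without regard to strand. The totals behind the RPKM values, as the files imply them, were 222362239 reads in heart and 192488089 reads in limb.

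The regions were selected on the measurement described here. By the paper's description, every TSTR had passed a test for more reads in one tissue than in the other. The 5 genes were proposed with these read counts known. The heart and limb values are therefore given as a description without a test. Intervals are exact at the 95% level and cover counting error only. The deposited lists hold no reads of gene bodies, so the tissue labels could not be compared with the mRNA of marker genes. In bulk tissue, fewer cells of a type and less RNA per cell cannot be told apart.

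Heart muscle contracts when myosin thick filaments pull on actin thin filaments within the sarcomere. Myh7 and Myh6 encode the beta and alpha heavy chains of cardiac myosin, and they lie next to each other in the genome in the same orientation. Myl2 encodes the regulatory light chain that binds the neck of ventricular myosin. Pdlim5 encodes a PDZ and LIM domain protein of the Z-disc, where it binds alpha-actinin and protein kinases. Adprhl1 encodes an ADP-ribosylhydrolase-like protein of heart muscle, which is not known as a building block of the sarcomere, so the grouping by muscle structure holds for the other genes only. Active enhancers and promoters are known to be transcribed into non-coding RNA in the tissue where they act.

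By the GENCODE vM1 annotation, sequence outside annotated genes at 4 loci carried the 12 heart TSTRs, since Myh6 and Myh7 share theirs. Amplicons that the study designed for RT-PCR of TSTRs lay inside 3 of these regions, and they are shown as stretches of transcribed sequence that the study itself measured. None of them samples the first Myl2 region, which had the most reads of the 12. The paper reports tissue-specific expression for every TSTR it tested by RT-PCR, with RNA of independently collected pools of tissue. It drew those TSTRs from the ones that differed most between the tissues. The amplicons are on the plus strand of mm9, with the primer sites in capitals.

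Pdlim5 amplicon, chr3:142092901-142093048: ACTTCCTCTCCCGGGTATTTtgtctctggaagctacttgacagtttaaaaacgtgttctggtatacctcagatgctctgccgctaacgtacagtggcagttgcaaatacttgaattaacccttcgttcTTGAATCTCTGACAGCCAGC
Myl2 amplicon, chr5:122545874-122546015: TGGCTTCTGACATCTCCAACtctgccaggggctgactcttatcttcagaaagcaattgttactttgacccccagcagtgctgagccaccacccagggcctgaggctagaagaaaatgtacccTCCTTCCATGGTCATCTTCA
Adprhl1 amplicon, chr8:13223382-13223521: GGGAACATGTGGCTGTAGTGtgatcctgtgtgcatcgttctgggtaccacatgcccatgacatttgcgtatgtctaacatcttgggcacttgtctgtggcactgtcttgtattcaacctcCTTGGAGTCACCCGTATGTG

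Upstream sequence is shown for Myl2 and Myh7 because a heart TSTR overlapped a promoter of these genes. Promoters were taken from RefSeq (GRCm38.p6, a later build) and placed by an exact match on the NCBIM37 genome, which is mm9. Each is printed along the gene's own strand, and the bases inside the TSTR are in capitals. Of each RefSeq window of 300 bp, 280 bp are printed for Myl2 and 250 bp for Myh7, and the rest of each window, downstream of the start, is left out.

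Myl2 promoter, chr5:122542948-122543227, plus strand: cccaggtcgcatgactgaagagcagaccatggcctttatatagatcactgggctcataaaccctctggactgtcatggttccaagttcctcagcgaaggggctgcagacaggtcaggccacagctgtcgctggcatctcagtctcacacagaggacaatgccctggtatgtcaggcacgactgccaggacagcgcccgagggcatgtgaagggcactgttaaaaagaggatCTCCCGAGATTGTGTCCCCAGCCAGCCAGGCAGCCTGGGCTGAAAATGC
Myh7 promoter, chr14:55613464-55613713, minus strand: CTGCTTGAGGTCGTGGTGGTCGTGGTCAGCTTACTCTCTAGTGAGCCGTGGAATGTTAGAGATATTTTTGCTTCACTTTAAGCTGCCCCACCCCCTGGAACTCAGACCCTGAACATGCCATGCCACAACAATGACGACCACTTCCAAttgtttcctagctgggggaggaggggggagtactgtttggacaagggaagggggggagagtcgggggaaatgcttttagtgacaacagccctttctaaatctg

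The thick filament gene Myl2 had the most reads of the 4 loci. At Myl2, the first heart TSTR (chr5:122543179-122545086, 1908 bp) had 404 heart reads and 1 limb read. The second (chr5:122545740-122546813, 1074 bp) had 174 heart reads and 0 limb reads (interval 0 to 3.69). Almost all reads of the pair thus came from heart.

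Per length and depth, the first Myl2 region stood at a heart level of 0.952 RPKM (interval 0.862 to 1.05). The second stood at 0.729 RPKM (interval 0.624 to 0.845), so their intervals did not overlap. The heart level of the first was 350-fold its limb level, with an interval of 62.4 to 13847 because of the single limb read. The second was 50.2-fold higher in heart with limb set to the floor of 3 reads, and the lower bound of its exact interval was 40.4-fold.

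According to the GENCODE vM1 annotation of mm9, both Myl2 regions lay upstream of Myl2, at 5874 bp and 4147 bp from its closest start, and overlapped no annotated gene. A gap of 653 bp separated them. Among elements tested before the study, the paper lists one that overlaps the first region as a heart enhancer. RefSeq's later annotation differs at this locus. One of its Myl2 promoters overlaps the first region by 69 bp, of which 49 bp are in the stretch printed above, and the transcript start it gives lies inside that region. Read by that start, the first heart TSTR begins at a Myl2 promoter and the second lies downstream of it. The other RefSeq promoter of Myl2 ends 396 bp before the first region, so both regions lie downstream of that promoter as well. The counts carry no strand, so RNA of a longer Myl2 transcript and RNA of intergenic origin cannot be told apart here.

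Near Myh7, the first heart TSTR (chr14:55613567-55613937, 371 bp) had 21 heart reads and 1 limb read. The second (chr14:55615105-55616272, 1168 bp) had 78 heart reads and 1 limb read. These were fewer reads than near Myl2, and the heart intervals of all 4 regions lay above their limb intervals.

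The Myh7 regions had heart levels of 0.255 RPKM (interval 0.158 to 0.389) and 0.300 RPKM (interval 0.237 to 0.375), which could not be separated from each other. Their heart levels were 18.2-fold (interval 2.92 to 752) and 67.5-fold (interval 11.8 to 2701) the limb levels. The first began 96 bp upstream of the annotated Myh7 start and overlapped the RefSeq promoter by 147 bp. The authors extended alignments to 200 bp, more than that distance, and reads reaching in from the Myh7 transcript were not separated. The second began 1634 bp upstream, beyond a gap of 1167 bp. An earlier tested element inside this second region is listed by the paper as a heart enhancer. From the start of Myh6, on the other side of Myh7, both Myh7 regions were 27803 bp and 29341 bp away. No TSTR of either list lay closer to Myh6.

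Z-disc gene Pdlim5 had 4 heart TSTRs, all upstream of its start. The outermost (chr3:142092282-142093243, 962 bp, 33652 bp from the start) had 302 heart reads and 0 limb reads. Its neighbour (chr3:142091098-142092316, 1219 bp, 32468 bp from the start) had 60 heart reads and 0 limb reads. The heart reads were thus concentrated in the outermost region.

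At 1.41 RPKM in heart (interval 1.26 to 1.58), the outermost Pdlim5 region had the highest level of the 12 heart TSTRs and ranked 50 of 834 on the heart list by RPKM. With limb at the floor it was 87.1-fold higher in heart than in limb (lower bound 70.4). The neighbouring region, which overlaps it by 35 bp, stood at 0.221 RPKM (interval 0.169 to 0.285). With limb at the floor, this neighbour was 17.3-fold higher in heart (lower bound 13.7). Both fell within an interval of 4102 bp (chr3:142090852-142094953) that the study amplified for cloning. In its transgenic reporter assay the paper reports reproducible heart activity of this interval.

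Closer to Pdlim5, a region of 323 bp (chr3:142085548-142085870, 26918 bp from the start) had 16 heart reads and 0 limb reads. A region of 270 bp beside it (chr3:142086606-142086875, 27976 bp from the start) had 14 heart reads and 1 limb read. These were among the least covered of the 12, with heart levels of 0.223 RPKM (interval 0.127 to 0.362) and 0.233 RPKM (interval 0.127 to 0.391). The former was 4.62-fold higher in heart with limb at the floor (lower bound 3.34). The latter was 12.1-fold higher with an interval of 1.84 to 512.

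Past the 3′ end of Pdlim5, the heart list held 4 more regions that the distance limit left out, at 152430 bp to 157054 bp from a start of the gene and 1184 bp to 5808 bp from its end. They had 37 to 101 heart reads and 3 to 22 limb reads. Summed, they held 277 heart reads and 45 limb reads, a heart level 5.33-fold the limb level (interval 3.88 to 7.47). The upstream Pdlim5 regions together held 392 heart reads and 1 limb read. These sums are over regions called separately, and the difference between the sets was not tested. No other heart TSTR lay between 100 and 250 kb from a start of the 5 genes. The most distant region inside the limit was the limb TSTR described below, at 74412 bp.

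Adprhl1 had 4 heart TSTRs, beyond its 3′ end. The central one (chr8:13222503-13224063, 1561 bp) had 282 heart reads and 2 limb reads. The one on its side toward Adprhl1 (chr8:13223975-13225862, 1888 bp) had 178 heart reads and 0 limb reads. On the other side (chr8:13221533-13222557, 1025 bp), 89 heart reads and 1 limb read were counted. The 3 formed 1 chain with overlaps of 55 bp and 89 bp, and the heart level peaked in its middle.

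Per length, the central Adprhl1 region had a heart level of 0.812 RPKM (interval 0.720 to 0.913), against 0.424 RPKM (interval 0.364 to 0.491) and 0.390 RPKM (interval 0.314 to 0.481) on its sides. It was 122-fold higher in heart (interval 33.5 to 1013). The side toward Adprhl1 was 51.4-fold higher with limb at the floor (lower bound 41.3). The other side was 77.0-fold higher (interval 13.5 to 3077). The fourth region (chr8:13230950-13231247, 298 bp) had 12 heart reads and 0 limb reads. With limb at the floor it was 3.46-fold higher in heart (lower bound 2.41), the only heart TSTR of the 12 below 4-fold by the floored ratio.

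The link of these regions to Adprhl1 depended on the kind of start. The closest annotated start, at 11838 bp to 20528 bp, was that of an Adprhl1 transcript with a retained intron. From the nearest start of a coding Adprhl1 transcript they were 22824 bp to 31514 bp away. Grtp1, on the other side, had its coding start 20913 bp to 30330 bp away, closer than that of Adprhl1 for 3 of the 4 regions.

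The limb list held 1 region in reach, at 74412 bp from a start of Myl2 (chr5:122628334-122628705, 372 bp). It had 9 heart reads and 29 limb reads. The limb level was 0.405 RPKM and the heart level 0.109 RPKM, a ratio of 3.72 (interval 1.72 to 8.94), so this region was below 4-fold. It lay past the 3′ end of Myl2, and its closest start, at 5593 bp, belonged to Ppp1cc, which encodes a catalytic subunit of protein phosphatase 1. Heart TSTRs needed 10 or more reads, so a region with 9 heart reads was below all of them by the selection alone.

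**Figure D1:**
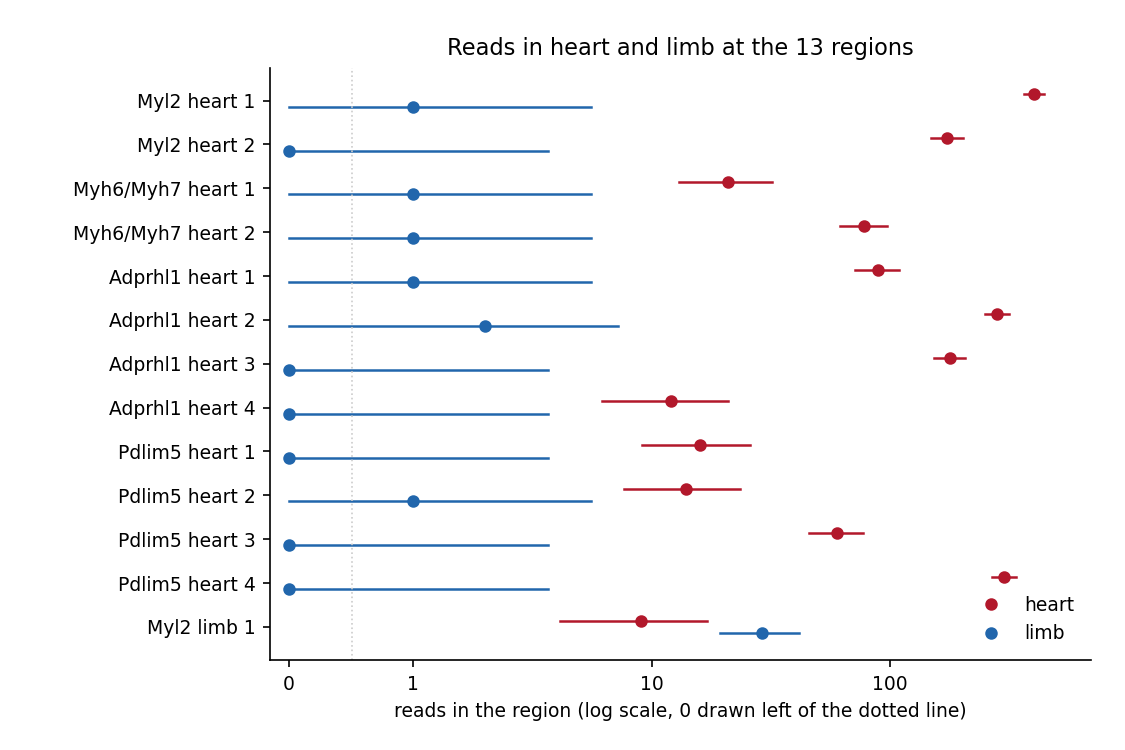
Reads per region in heart (red) and limb (blue) for the 13 regions near the 5 genes, on a log axis with 0 drawn at the left edge; points are read counts and lines are exact 95% Poisson intervals. The 12 heart TSTRs range from 12 to 404 heart reads with 2 limb reads or fewer, whereas the limb TSTR has 9 heart reads and 29 limb reads.

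**Figure D2:**
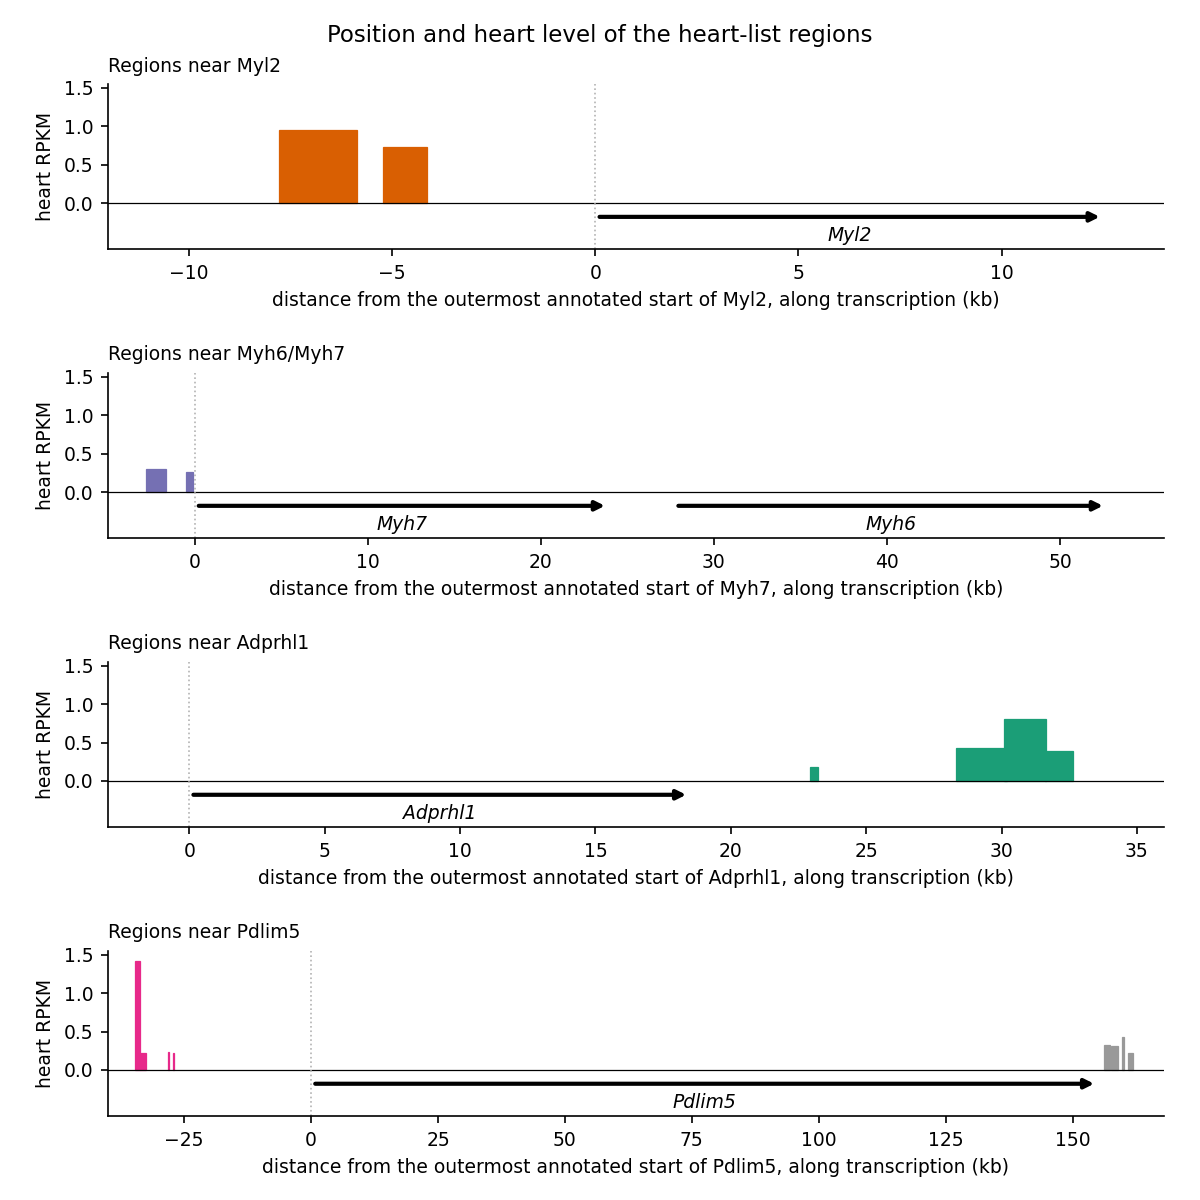
Position of the heart TSTRs at each locus, as distance in kb from the outermost annotated start along the direction of transcription (horizontal axis), and their heart level in RPKM (bar height); arrows are annotated genes and grey bars are the regions past the 3′ end of Pdlim5 that the distance limit left out. By the GENCODE vM1 starts drawn here, regions lie upstream of Myl2, Myh7 and Pdlim5 and downstream of Adprhl1. By the RefSeq starts, the Myl2 regions lie at or downstream of a Myl2 promoter. The tallest bar, 1.41 RPKM, is 33652 bp upstream of Pdlim5.

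Summed by locus, Myl2 had 578 heart reads and 1 limb read, Adprhl1 had 561 and 3, Pdlim5 had 392 and 1, and the myosin heavy chain locus had 99 and 2. The heart share of the reads, scaled by the totals, was 99.8% for Myl2 (interval 98.9 to 99.995) and 99.4% for Adprhl1 (interval 98.2 to 99.9). It was 99.7% for Pdlim5 (interval 98.4 to 99.993) and 97.7% for the myosin heavy chains (interval 92.03 to 99.7). Because of the few limb reads these shares could not be ranked, their intervals overlapping.

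Heart level per length was lowest at the myosin heavy chain locus, whether or not overlapping regions were kept. With all regions summed, Myl2 was highest with 194 heart reads per kb (interval 178 to 210), followed by Pdlim5 with 141 (interval 128 to 156). Adprhl1 had 118 (interval 108 to 128) and the myosin heavy chains had 64.3 (interval 52.3 to 78.3). The neighbours Pdlim5 and Adprhl1 met at 128 and were the only neighbours in this order whose intervals touched. The order rested partly on overlapping regions. Where only the region with the most reads was kept from each overlapping set, Pdlim5 moved to 214 (interval 191 to 238), which overlaps that of Myl2, and Adprhl1 moved to 158 (interval 141 to 177).

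In the heart list as a whole, 54.2% of regions were at least 4-fold higher in heart, with limb set to 3 reads where it had fewer. Near the 5 genes this held for 11 of 12 heart TSTRs. The region just inside 4-fold was the one of 270 bp near Pdlim5, at 4.04-fold with the floor, and the one just outside was the fourth near Adprhl1, at 3.46-fold. In the limb list, 49.5% of regions were at least 4-fold higher in limb, and the region past Myl2 was not. Heart TSTRs without any limb read made up 22.8% of the heart list and 6 of the 12. Since the genes were proposed from these values, nothing is read from the difference.

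The tissue-specificity index, the difference of the heart and limb RPKM over their sum, had a median of 0.997 over the 12 heart TSTRs, from 0.848 to 1. The median over all heart TSTRs was 0.733. Their lowest index was -0.0142, so by the deposited RPKM not every heart TSTR was higher in heart. The 12 regions held 1630 heart reads, 2.39% of the heart reads of the list from 1.44% of its regions, and 5 of them were among the 83 heart TSTRs with the most heart reads. They were also longer, with a median of 1049.5 bp against 424.5 bp over the list. Of all 900 protein-coding genes with a heart TSTR within 100 kb, 72 had at least as many as the 4 of Adprhl1 and Pdlim5, and 254 had at least the 2 of Myl2, Myh6 and Myh7.

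**Figure D3:**
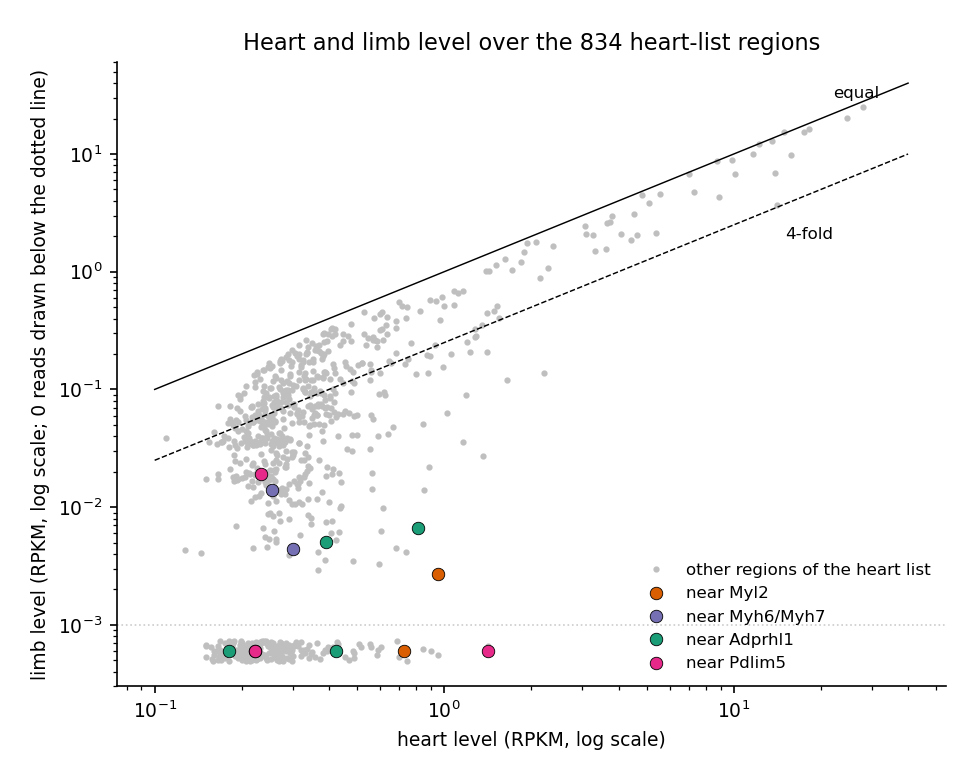
Heart level against limb level in RPKM, both on log axes, for the 834 heart TSTRs (grey), with the 12 near the 5 genes drawn again, coloured by locus. Regions without limb reads are drawn below the dotted line, grey points with a random vertical offset and coloured points at a fixed height. The solid line marks equal levels and the dashed line 4-fold; the 12 coloured regions lie below the dashed line, 1 of them, the fourth near Adprhl1, only because its limb level is drawn at 0 instead of the floor of 3 reads.

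Base composition was not part of the selection. The GC content of the 12 heart TSTRs had a median of 51.2%, from 33.4% to 58.0%, against a median of 40.9% over the heart list and 42.8% over the limb list. At least 50% GC was found in 7 of the 12 and in 91 of the 834 heart TSTRs (10.9%). The loci differed. The Myh7 regions had 58.0% and 52.5% GC, the Myl2 regions 56.2% and 48.8%, the Adprhl1 regions 46.3% to 57.2%, and the Pdlim5 regions 33.4% to 50%.

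Long heart TSTRs were not richer in GC on the list as a whole, with a median of 40.5% over the 191 regions of at least 1000 bp, against 53.6% over the 7 such regions near the 5 genes. CpG dinucleotides followed, with a median of 14.7 per kb against 7.35 per kb over the heart list, and the highest value, 26.5 per kb, in the Adprhl1 region with 178 heart reads. Regions of a locus are neighbours and not independent, so these values are given as a description of 4 loci, without a test. GC content can alter how well fragments are amplified and sequenced, and its part in the read counts was not tested.

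**Figure D4:**
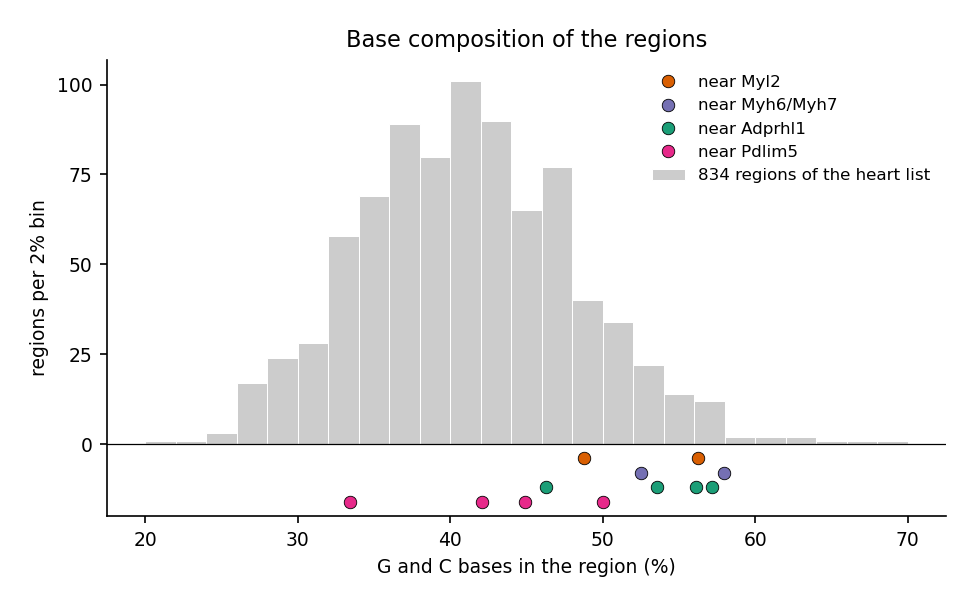
GC content in percent (horizontal axis) of the 834 heart TSTRs in bins of 2% (grey bars, number of regions) and of the 12 near the 5 genes (points below, coloured by locus, 1 row per locus). The list has a median of 40.9% and the 12 regions a median of 51.2%, and 3 of the 4 Pdlim5 regions are the lowest of the 12.

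Promoters overlapped few regions of either list. An exact match to 1 of 32851 RefSeq promoters was found at 22 heart TSTRs (2.64%) and 62 limb TSTRs (5.75%), and 2 of the 22 were the first Myl2 region and the first Myh7 region. No RefSeq promoter overlapped a Pdlim5 or Adprhl1 region, and the promoters of these genes and of Myh6 lay at least 22865 bp from the closest TSTR.

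Motifs of cardiac and muscle transcription factors were then counted in 300 bp around the centre of each region, on both strands. The letters searched were AGATAA for GATA factors, CATTCC for TEAD factors, AGGTGT for T-box factors, AAGTG for NKX2 factors and CANNTG for the E-box of basic helix-loop-helix factors. The MEF2 motif and the CArG box of serum response factor were searched by their degenerate consensus. The E-box letters can overlap the others. Shares of the heart list are over the 571 heart TSTRs that fill the window, while 2 of the 12 regions were shorter and were searched whole.

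E-box letters occurred in 10 of the 12 heart TSTRs (78.1% of the list) and NKX2 letters in 8 (56.6%). TEAD letters occurred in 3 (15.9%), T-box letters in 3 (13.8%), the MEF2 motif in 1 (5.25%), and GATA letters in 0 (22.4%). No CArG box was found in these windows (1.40% of the list). Over whole regions the GATA letters were found in 4 of the 12, among them both Myl2 regions, against 37.8% of the heart list. The 12 regions are longer than those of the list, and per kb they held 0.414 GATA matches against 0.839 over the heart list. TEAD matches were also fewer per kb (0.414 against 0.622), while E-box matches were more (7.13 against 5.37). The search did not account for base composition, and the 12 regions are richer in GC (median 51.2% against 40.9%). None of these shares was tested, and a match does not mark a bound site.

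Several muscle motifs were found in the second Myh7 region. Searched whole, it held 2 MEF2 matches, a CArG box, and TEAD and T-box letters, and it was the only one of the 12 with a CArG box (3.24% of the heart list when searched whole). Its length is 1168 bp against a median of 424.5 bp over the heart list, and whether the matches lie closer together than elsewhere was not tested. The stretch of 220 bp that holds 3 of these matches is shown on the plus strand, opposite to Myh7, with the TEAD, MEF2 and CArG matches in capitals in this order. It was chosen after the matches were seen.

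Myh7 upstream region, chr14:55615697-55615916: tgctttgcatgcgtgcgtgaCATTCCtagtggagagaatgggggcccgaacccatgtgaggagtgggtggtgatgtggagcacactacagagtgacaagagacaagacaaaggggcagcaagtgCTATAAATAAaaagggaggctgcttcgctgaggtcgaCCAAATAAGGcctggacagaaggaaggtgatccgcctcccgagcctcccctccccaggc

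The Myh7 promoter printed above holds the TEAD letters as well, on its other strand and within the bases in capitals. Of the Pdlim5 regions, the one with 60 heart reads held a MEF2 match and TEAD letters, and the one with 302 heart reads held GATA letters at 2 places, TEAD letters and T-box letters. The Adprhl1 regions held E-box letters at 3 to 13 places each and neither MEF2 nor TEAD letters.

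Other genes of the same systems were compared by how many had a TSTR within 100 kb, from lists without the 5 genes. Among all 22208 protein-coding genes, 4.05% had a heart TSTR and 9.08% a limb TSTR in reach. Of 35 other cardiac sarcomere and Z-disc genes, 13 (37.1%) had a heart TSTR and 4 had a limb TSTR. Lmod2, which nucleates actin filaments, had 5 heart TSTRs with 550 heart reads and 54 limb reads, 8.82-fold higher in heart (interval 6.66 to 11.9). Actc1, the cardiac actin, had 4 with 156 heart reads and 3 limb reads, 45.0-fold higher (interval 15.1 to 221).

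The sarcomere list also had a gene on the limb side. Near Xirp2, which encodes an actin-binding repeat protein of muscle, were 15 limb TSTRs with 808 limb reads and 338 heart reads, 2.76-fold higher in limb (interval 2.43 to 3.14), the closest of them 48790 bp away. Near the troponin genes Tnnt2, Tnni3, Tnni1 and Tnnc1, singled out after the values were seen, neither list held a region.

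Of 16 genes of calcium handling and peptide hormones, 6 had a heart TSTR and 1 had a limb TSTR. Slc8a1, the sodium-calcium exchanger, had 3 heart TSTRs with 177 heart reads and 1 limb read, 153-fold higher in heart (interval 27.1 to 6086) but 88886 bp away at the closest. Nppa, which encodes atrial natriuretic peptide, had 1 with 141 heart reads and 0 limb reads, 40.7-fold higher with limb at the floor (lower bound 32.7). Pln, the inhibitor of the calcium pump, had 1 limb TSTR with 98 heart reads and 148 limb reads.

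Heart regulators had the highest share of the lists, with 7 of 13 near a heart TSTR and 0 near a limb TSTR. Nkx2-5 had 10 heart TSTRs with 938 heart reads and 7 limb reads, 116-fold higher in heart (interval 56.1 to 289). Myocd had 3 with 274 and 2 reads, and Gata4 had 4 with 197 and 8 reads. Limb regulators were the reverse, with 0 of 13 near a heart TSTR and 5 near a limb TSTR. Lmx1b had 1619 limb reads and 2 heart reads, Prrx1 had 311 and 9, and Msx1 had 97 and 3.

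Skeletal and smooth muscle genes were counted to see whether other muscle types were near heart TSTRs. Of 21 skeletal sarcomere genes, 4 had a heart TSTR and 3 had a limb TSTR, but 0 and 1 when each region was given only to the gene with the closest coding start. Within 100 kb there were 456 heart reads and 9 limb reads near Mybpc2, 261 limb reads and 111 heart reads near Myom3, and 29 limb reads and 2 heart reads near Acta1. Of 8 skeletal muscle regulators, Myf5 and Myf6 shared 1 heart TSTR, with 1214 heart reads and 860 limb reads. Of 7 smooth muscle genes, 0 had a heart TSTR, and Tagln had a limb TSTR with 27 limb reads and 11 heart reads. Of 12 endothelial and blood genes, 1 had a heart TSTR, Emcn with 30 heart reads and 7 limb reads, and 1 had a limb TSTR, Alas2 with 82 limb reads and 34 heart reads.

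Relatives of the 5 genes gave counts too small to set apart from the shares over all genes. Of 12 other myosin heavy chains, only Myh10, a non-muscle form, had a heart TSTR, 67413 bp away with 22 heart reads and 6 limb reads. Of 8 PDZ-LIM and ADP-ribosylhydrolase relatives, 0 had a heart TSTR, and Ldb3 had a limb TSTR with 17 limb reads and 3 heart reads. Some genes stand in more than 1 list and neighbouring genes share regions, so these counts are given beside the shares over all genes without a test. With the closest coding start alone, the cardiac sarcomere list had 11 genes with a heart TSTR and 1 with a limb TSTR, and the counts of 1 for the myosin heavy chains, the PDZ-LIM list and the smooth muscle genes became 0.

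**Figure D5:**
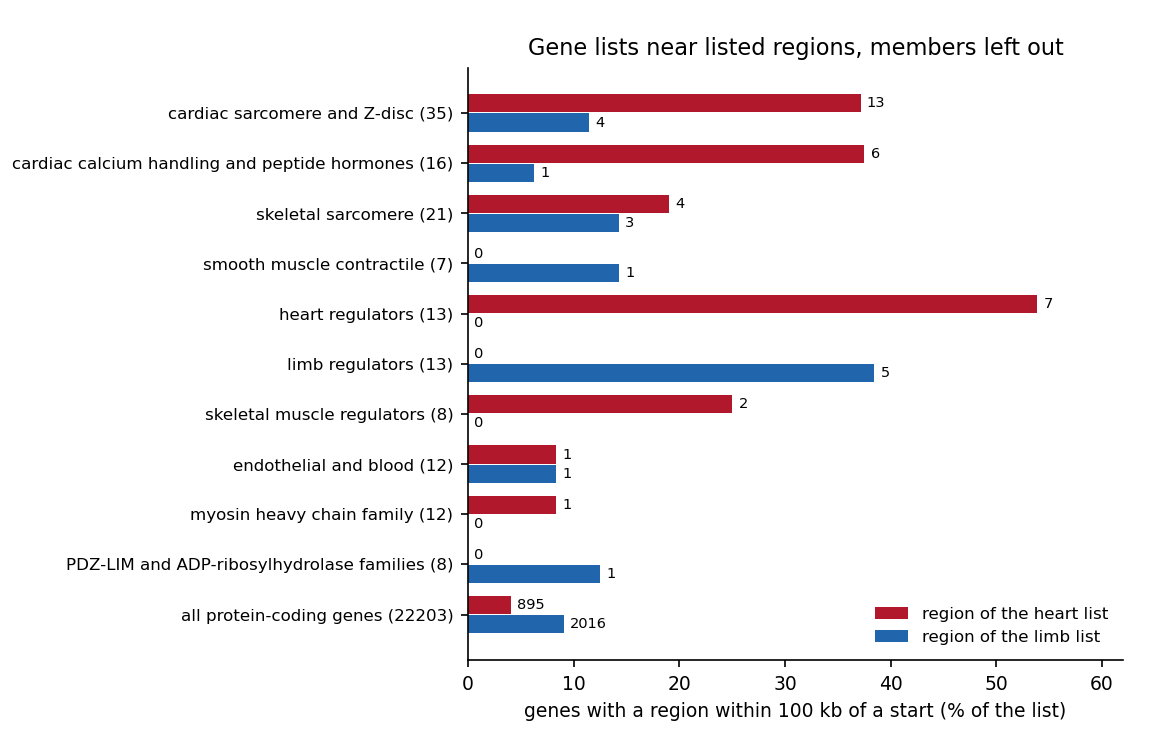
Share of genes in each list with a heart TSTR (red) or a limb TSTR (blue) within 100 kb of a transcript start, in percent, with the 5 genes left out; numbers in brackets are genes in the list and numbers beside the bars are genes with a region. Heart regulators (7 of 13), calcium handling and hormone genes (6 of 16) and sarcomere genes (13 of 35) have the longest red bars.

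Genes whose TSTRs were most like those of the 5 genes were sought over the 2 samples, by the distance in log2(RPKM + 0.01) to the mean of the 4 loci, among 2776 protein-coding genes with a region within 100 kb and none shared with the 5 genes. For this distance each locus was pooled over both lists, so Myl2 included the limb TSTR with its 29 limb reads. The order of genes without that region was not computed. The 3 closest were Trim55, Crh and 1700064H15Rik, at a distance of 0.24. They share the same 9 heart TSTRs, with 1135 heart reads, 12 limb reads and a pooled heart level of 0.563 RPKM. Trim55 encodes a RING-finger protein of striated muscle, and Crh encodes corticotropin-releasing hormone. The next closest were outside the rule and share a region. They were Mtr, which encodes methionine synthase, with 2 heart TSTRs of 117 heart reads and 2 limb reads, and Actn2, the alpha-actinin of the Z-disc, with 1 heart TSTR of 91 heart reads and 2 limb reads.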

How the data were processed

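Total RNA of mouse heart and limb (embryonic day 11.5, 1 pooled sample each) was depleted of ribosomal RNA and sequenced as reads of 50 bp. The authors filtered the reads with the CASAVA 1.8 module, aligned with bowtie2 to mm9 (aligner version not given in the sources used here), extended alignments to 200 bp, dropped repetitively mapped reads, called regions of 10 or more reads with USeq, removed those overlapping known genes, mRNAs or ESTs, and kept those with p under 0.01 in a two-proportion z-test. The authors deposited raw counts of reads per region without normalization. The deposited RPKM values scale these counts to region length and tissue depth. Solving each row for the depth gave 1 total per tissue, 222362239 reads in heart and 192488089 in limb. The floor of 3 reads is 1.35e-06% of the heart total and 1.56e-06% of the limb total.

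Regions were assigned to genes by the starts of all GENCODE vM1 transcripts, and sequence was read from the NCBIM37 genome, the same build. Starts in the files count from 0 and are printed counting from 1. Folds are ratios of reads per total. They carry exact conditional binomial (Clopper-Pearson) intervals, and levels carry exact Poisson intervals. Where limb had 0 reads, the printed fold uses the floor and the lower bound is that of the exact interval. Counts of regions at least 4-fold higher use the floor wherever the tissue opposite to the list had fewer than 3 reads. Scripts used Python 3.11.15, pandas 2.3.3, numpy 2.4.6, scipy 1.17.1 and matplotlib 3.10.9, and were tested on simulated counts. Every region of the 5 genes is described. Per gene list, the text names the 3 genes whose regions hold the most reads in the tissue of their TSTR list, or all where fewer had a region. The members and lists were chosen with earlier results of these data known. Alternative distances, floors, thresholds, totals, pseudocounts and windows were tried. No p-value is given, since the contrast chose the regions and each tissue is 1 sample.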

Additional observations from a re-analysis of the deposited data

How the results depend on the processing

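The number of regions near the 5 genes was 13, and it was 12 within 50 kb, 18 within 250 kb and 13 with coding starts only. Of the 13 regions, 11 were at least 4-fold higher in their tissue, beside 54.2% of the heart list. The count was 12 (65.2% of the heart list) with a floor of 1 read, 8 (36.6%) with 5 reads, 8 (24.2%) at 8-fold, 13 (85.3%) at 2-fold, 12 (66.3%) with equal totals, 12 (67.6%) with totals over the listed regions, and 9 of 10 (58.3%) with a filter of 20 reads. The heart share at each locus stayed within its interval with equal totals and with overlapping regions dropped. The median tissue-specificity index moved from 0.997 to 0.923 with a pseudocount of 0.01 RPKM and to 0.617 with 0.1 RPKM, and that of the heart list moved from 0.733 to 0.689 and 0.455. With overlapping regions dropped, heart reads per kb moved from 118 to 158 at Adprhl1 and from 141 to 214 at Pdlim5, since less covered neighbours left the sum. Pairs of motif and heart TSTR with a match numbered 25 in windows of 300 bp, 20 in 200 bp and 39 over whole regions, which are longer. List entries near a limb TSTR, with a gene of more than 1 list counted in each, numbered 16 within 100 kb. They numbered 9 when each region was given to the closest coding start alone.

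No paired analysis was possible because each tissue is 1 sample and no comparison was tested. With 1 sample per tissue, no replicate could be left out. Depth limits the folds on the limb side, where 0 to 2 reads leave the upper bounds open or wide, and the regions of 12 to 21 heart reads near Pdlim5, Adprhl1 and Myh7.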

Other observations

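Other sarcomere genes with heart TSTRs within 100 kb, named after their values were seen, had few limb reads as well. Smpx had 66 heart reads and 0 limb reads over 2 regions, Hspb7 had 85 and 0 over 2, Myoz2 had 60 and 0 at 1 region, and Csrp3 had 47 and 0 at 1 region. Ankrd1, which encodes a stress-responsive ankyrin repeat protein, had 88 heart reads and 3 limb reads over 2 regions. Near Tpm1, the striated muscle tropomyosin, the lists held 3 heart TSTRs with 102 heart reads and 4 limb reads and 1 limb TSTR with 5 heart reads and 18 limb reads.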
